A study of Mus musculus with 8 samples.

Results

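The nuclear genes for the subunits of respiratory chain complexes I to IV and of ATP synthase, complex V, were followed across all 8 libraries. Members were taken by gene symbol from the 24924 genes analysed: Nduf genes of the A, B, C, S and V series, Sdha to Sdhd, the Uqcr genes, Cox4 to Cox8 genes and Atp5 genes, without names marked as pseudogenes. The rule found 85 genes, of which 36 were placed in complex I, 4 in complex II, 8 in complex III, 20 in complex IV and 16 in complex V. Ndufa4 and its relative Ndufa4l2 were counted with complex IV, where the NDUFA4 protein resides. Atp5s carries the prefix but is not a subunit of ATP synthase and stood in no complex. Ndufab1, Cyc1 and Usmg5 encode subunits under other names and lay outside the rule, and the subunits encoded by mitochondrial DNA were not analysed here.

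The libraries came from brain T cells and microglia, the resident macrophages of the brain, which were sorted on surface markers from C57BL/6 mice of 20 to 22 months. The mice were given interleukin-5 (IL-5), a cytokine best known for its action on eosinophils and B cells, at 2 µg per day for 2 days, or phosphate-buffered saline (PBS). The 4 groups of 2 libraries were T cells of IL-5 mice, T cells of PBS mice, microglia of IL-5 mice and microglia of PBS mice. The labels do not state that replicates came from separate mice, so p-values measure the spread between these libraries, which may be technical.

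In the respiratory chain, complexes I and II pass electrons from NADH and succinate to ubiquinone, complex III passes them on to cytochrome c and complex IV to oxygen, and complex V makes ATP from the proton gradient that complexes I, III and IV build. Each complex except II joins a few catalytic subunits, some encoded by mitochondrial DNA, with many small accessory subunits encoded in the nucleus. Complex II is wholly nuclear-encoded and also serves the TCA cycle. T cells and microglia are both known to shift between oxidative phosphorylation and glycolysis when they are activated.

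The libraries held 23536908 to 30423828 gene counts. T cell markers summed to 4527 to 7637 CPM (counts scaled to library size) in T cells and to 19.5 to 179 CPM in microglia, whereas microglial markers summed to 107 to 211 CPM in T cells and to 61297 to 94468 CPM in microglia. Choroid plexus transcripts were present in all libraries: Ttr, which encodes transthyretin, reached 45100 to 91500 CPM in T cells and 33500 to 59200 CPM in microglia, and the list of 10 choroid plexus and ependymal genes summed to 113806 and 116691 CPM in T cells of IL-5 mice, 84496 and 59424 CPM in T cells of PBS mice, 60222 and 64095 CPM in microglia of IL-5 mice, and 43318 and 36022 CPM in microglia of PBS mice. Neutrophil genes summed to 13679 to 17635 CPM in microglia, and the globin genes were at 0. Microglia IL-5 library 1 stood apart: 25.5% of its column lay outside annotated genes, against 15.2% to 17.0% in the other microglial libraries, and the mean transcript length weighted by count was 1975 bases, against 2216 to 2284 bases. Since the libraries are bulk samples, fewer cells of a type and less RNA per cell cannot be told apart.

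The members took 2.52% and 3.02% of the gene counts in T cells of IL-5 mice, 2.31% and 2.00% in T cells of PBS mice, 5.26% and 2.96% in microglia of IL-5 mice and 2.48% and 2.16% in microglia of PBS mice. Microglia IL-5 library 1 was the highest of the 8 libraries for 64 members and the lowest for 12. Medians, counts and named genes that move with this library are therefore also given without it.

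The promoters of a few members are shown to let the genes that set the 2 cell types apart be read beside each other: Cox8b and Cox8a are alternative forms of the same small complex IV subunit that differed in their use, and Ndufa10, Uqcrc1 and Sdhd are subunits of complexes I, III and II that passed a test between T cells and microglia. Each sequence runs 5′ to 3′ on the strand of the gene, from 250 bases before the start of transcription to 50 bases after it, and was taken from RefSeq on GRCm38.p6. They lie at chr7:140900397-140900696 on the minus strand for Cox8b, chr19:7217567-7217866 on the minus strand for Cox8a, chr1:92473709-92474008 on the minus strand for Ndufa10, chr9:108936398-108936697 on the plus strand for Uqcrc1 and chr9:50603800-50604099 on the minus strand for Sdhd. Capitals mark TATAAA, the ETS word CCGGAAG that GABPA is known to bind, AAGATGGC of YY1, or the NRF1 core GCATGCGC, each on either strand.
Cox8b: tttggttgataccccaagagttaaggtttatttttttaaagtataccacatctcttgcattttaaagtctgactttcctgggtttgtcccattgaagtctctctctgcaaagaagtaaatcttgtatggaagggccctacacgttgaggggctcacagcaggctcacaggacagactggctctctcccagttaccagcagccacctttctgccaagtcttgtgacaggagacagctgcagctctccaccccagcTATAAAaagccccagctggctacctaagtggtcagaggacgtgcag
Cox8a: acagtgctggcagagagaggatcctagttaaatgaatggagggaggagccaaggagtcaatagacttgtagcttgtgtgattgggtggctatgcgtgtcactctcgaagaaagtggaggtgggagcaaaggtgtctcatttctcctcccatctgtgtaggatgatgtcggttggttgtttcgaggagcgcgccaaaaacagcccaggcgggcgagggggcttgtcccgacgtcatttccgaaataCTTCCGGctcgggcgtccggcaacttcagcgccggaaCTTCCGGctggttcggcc
Ndufa10: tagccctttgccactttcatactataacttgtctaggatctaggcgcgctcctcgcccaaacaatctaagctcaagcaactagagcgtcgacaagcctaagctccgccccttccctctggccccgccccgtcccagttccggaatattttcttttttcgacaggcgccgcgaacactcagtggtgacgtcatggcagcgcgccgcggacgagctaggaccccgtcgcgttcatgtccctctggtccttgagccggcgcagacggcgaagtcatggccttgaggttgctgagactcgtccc
Uqcrc1: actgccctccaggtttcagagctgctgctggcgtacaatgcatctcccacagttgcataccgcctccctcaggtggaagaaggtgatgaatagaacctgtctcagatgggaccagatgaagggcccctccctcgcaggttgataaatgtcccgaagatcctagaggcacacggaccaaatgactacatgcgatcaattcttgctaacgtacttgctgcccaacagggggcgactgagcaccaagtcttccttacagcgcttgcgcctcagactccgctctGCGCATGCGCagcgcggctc
Sdhd: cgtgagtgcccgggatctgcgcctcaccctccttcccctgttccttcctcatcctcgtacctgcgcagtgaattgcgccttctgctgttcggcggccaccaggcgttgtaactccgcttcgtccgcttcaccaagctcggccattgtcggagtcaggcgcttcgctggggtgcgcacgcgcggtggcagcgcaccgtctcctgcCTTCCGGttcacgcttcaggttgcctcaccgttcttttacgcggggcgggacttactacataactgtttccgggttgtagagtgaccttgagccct

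The Cox8b window held TATAAA just after the annotated start and none of the other capitalised words, whereas the Cox8a window held the ETS word at 2 places, printed as its reverse complement CTTCCGG. Uqcrc1 had the NRF1 core on both strands, overlapping, downstream of its start, Sdhd had 1 ETS word upstream of its start, and the Ndufa10 window had no match. Of the 85 members, 68 had a promoter in the RefSeq table. The NRF1 core was found in 14.7% of them, against 3.0% of all 27025 genes with a promoter in that table. The ETS word was found in 23.5% of the members' promoters against 9.9% of all, and the YY1 word in 14.7% against 3.2%. CCAAT, which was searched but not capitalised, was at 44.1% against 41.1%, and TATAAA at 10.3% against 15.7%. Among the 18191 of these genes also analysed here, the NRF1 core was at 4.0%, ETS at 12.8% and YY1 at 3.6%. There CCAAT was at 42.1% and TATAAA at 14.2%. These are counts of letters on both strands, and not evidence that a factor binds.

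Transcript levels per length were compared as TPM, that is counts scaled to transcript length and library size, computed here with the longest annotated transcript of each gene. Complex IV and complex I were the most abundant as sums, and complex II the least. Complex I summed to 17180 and 19870 TPM in T cells of IL-5 mice, 16590 and 14930 TPM in T cells of PBS mice, 29930 and 18300 TPM in microglia of IL-5 mice and 15410 and 14110 TPM in microglia of PBS mice. Microglia IL-5 library 1 stood far above the other 7 libraries, which lay between 14110 and 19870 TPM with overlapping groups.

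Complex II was the only complex for which, on the TPM scale, both microglial groups lay below both T cell groups without overlap. It summed to 1262 and 1166 TPM in T cells of IL-5 mice and 915.8 and 900.3 TPM in T cells of PBS mice, and to 505.5 and 769.0 TPM in microglia of IL-5 mice and 800.1 and 828.0 TPM in microglia of PBS mice. The order of the PBS groups was the opposite as a share of gene counts, which is not scaled to length: complex II took 0.0868% and 0.0775% in T cells of PBS mice and 0.0930% and 0.0913% in microglia of PBS mice. Complex III summed to 6900 and 7925 TPM in T cells of IL-5 mice, 6196 and 5432 TPM in T cells of PBS mice, 11020 and 6694 TPM in microglia of IL-5 mice and 5365 and 4406 TPM in microglia of PBS mice. Complex IV summed to 19510 and 22090 TPM in T cells of IL-5 mice, 16560 and 13850 TPM in T cells of PBS mice, 35130 and 19300 TPM in microglia of IL-5 mice and 17170 and 13960 TPM in microglia of PBS mice. In both complexes microglia IL-5 library 1 was far above the other 7 libraries.

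Complex V summed to 12420 and 15180 TPM in T cells of IL-5 mice, 12330 and 11150 TPM in T cells of PBS mice, 14100 and 11430 TPM in microglia of IL-5 mice and 9190 and 8376 TPM in microglia of PBS mice. T cells of either treatment were above microglia of PBS mice, while both microglial libraries of IL-5 mice lay within the T cell range. As a share of the TPM of all members, complex V made up 21.7% to 24.1% in T cells and 15.5% to 20.2% in microglia, and the lowest value was again microglia IL-5 library 1.

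By mean TPM over the 8 libraries the leading members were Cox8a at 3050 TPM, Cox6a1 at 2730 TPM, Ndufa4 at 2410 TPM, Ndufa1 at 2270 TPM and Cox4i1 at 2240 TPM, none of them a catalytic subunit. Among these, Cox4i1, the common form of subunit 4 of complex IV, varied least, between 1760 and 2930 TPM. Except for Cox4i1, each of these 5 genes was highest in microglia IL-5 library 1. Long catalytic subunits went the other way. Ndufs1, the large iron-sulfur subunit of complex I, spanned 5.35 to 104 TPM, Sdha, the flavoprotein of complex II, 16.5 to 267 TPM, and Atp5b, the catalytic beta subunit of ATP synthase, 122 to 1670 TPM, each with its lowest value in that library.

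Cox7b2 and Cox8c, forms known from testis, gave no count in any of the 8 libraries, and the limit a count of 0 allows was 0.0986 to 0.127 CPM. Ndufs5, a subunit of complex I found in most cells, had 1 count in all, in T cells PBS library 2. Its near-copy BC002163 had 5.26 to 20.7 CPM, and 24.1% of the 75-base windows of Ndufs5 transcripts recur in BC002163, which leaves its level partly uncertain. Its other windows recur in no other gene, and the part of shared windows in its near absence was not tested. Levels are also uncertain for Atp5l, with 76.0% of its windows in other genes, for Atp5h with 36.5% and for Ndufb4 with 35.2%. Even so, these reached 1505, 13927 and 2452 counts at most. Among members named in the tests below, Uqcrb shared 29.1% and Cox7c 25.0%. A second annotated gene carries the symbol Atp5o, which shared 39.1% of its windows. Ndufb4c, which fits the symbol rule, is annotated as a processed pseudogene, shares all of its windows with other genes and had at most 15 counts.

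**Figure D1:**
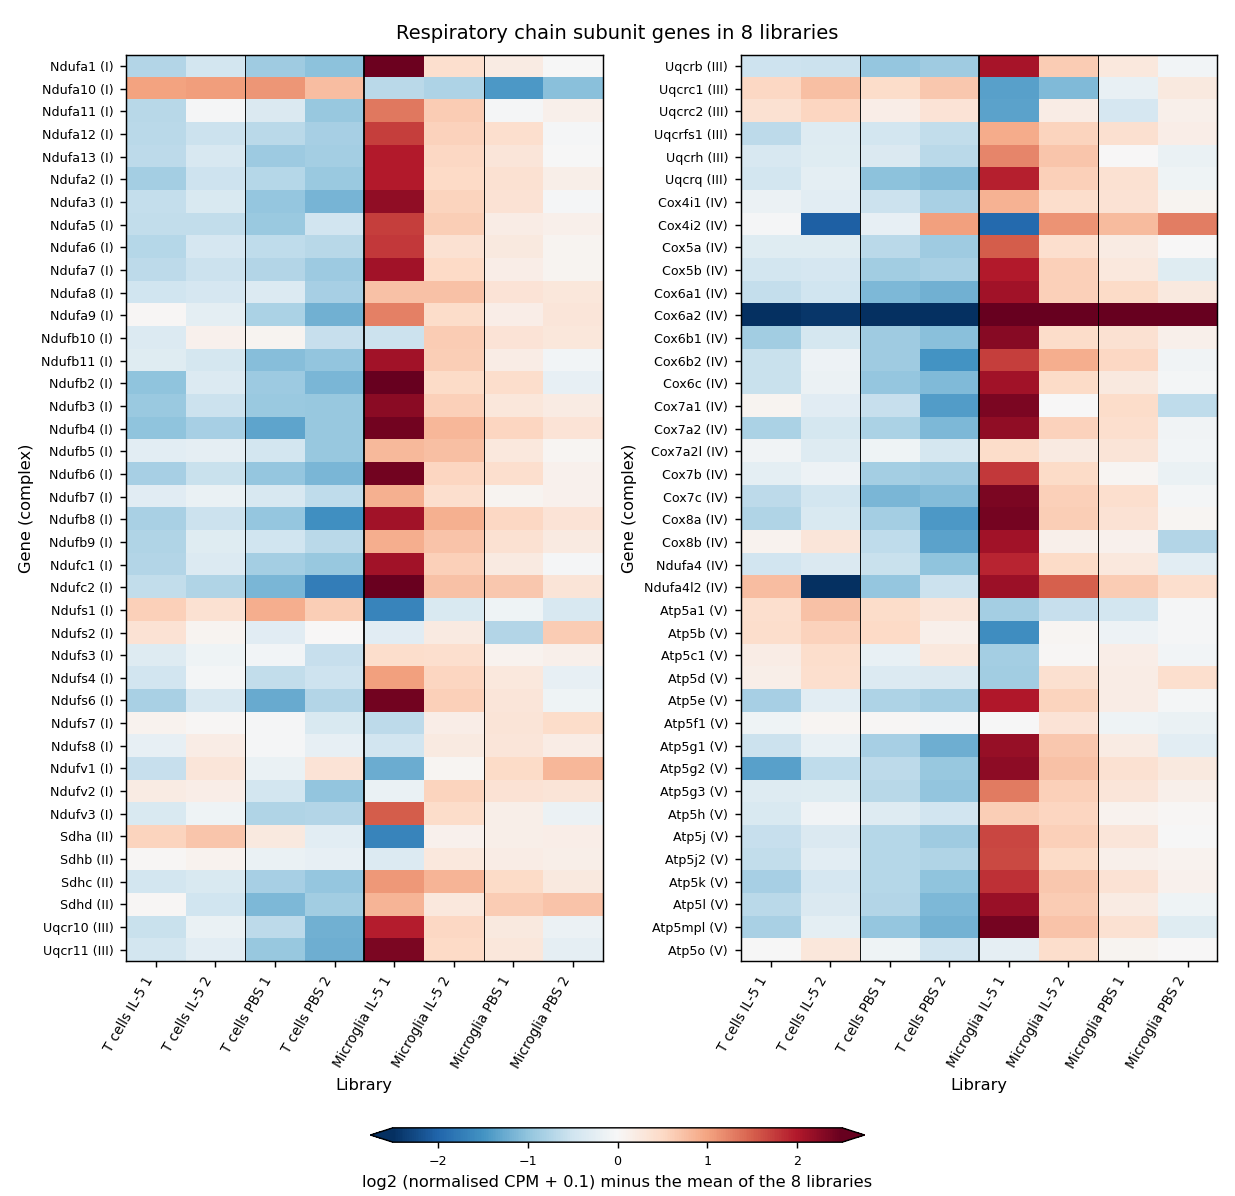
Level of each subunit gene in each library, as log2 of the normalised CPM plus 0.1 minus the mean of the gene over the 8 libraries; rows are genes with their complex, columns are libraries, blue is below the mean and red above it. Microglia IL-5 library 1 is the reddest column, with 64 members at their highest, while Ndufs1, Uqcrc1, Sdha and Atp5b are at their lowest in it. Members that do not exceed 1 normalised CPM in any library and Atp5s are left out.

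Several subunits of complexes IV and V have alternative genes, and their use was compared as a share of the TPM of the family. Cox6a2, the form of subunit 6a known from heart and skeletal muscle, made up 0% and 0.0627% of its family in T cells of IL-5 mice and 0% and 0% in T cells of PBS mice, against 2.52% and 2.41% in microglia of IL-5 mice and 3.31% and 4.84% in microglia of PBS mice. All 4 microglial libraries were above all 4 T cell libraries. Cox6a2 (GENCODE M21, chr7:128205435-128206387, minus strand) shares 10.3% of its exonic bases with Itgad, which had 0 to 1.28 CPM in T cells and 0.441 to 2.7 CPM in microglia. T cells IL-5 library 2 was the only T cell library with Cox6a2 counts, 17, and the only one with Itgad counts, 34. Genes of smooth and skeletal muscle summed to 1032 to 2573 CPM in T cells and to 275 to 789 CPM in microglia, the opposite order to Cox6a2. Of the skeletal muscle genes among them, Ckm reached at most 0.738 CPM, and Mylpf lay at 3.81 to 6.80 CPM in T cells and 0.212 to 7.66 CPM in microglia. Neutrophil genes ran in the same order as Cox6a2, with 0.757 to 126 CPM in T cells and 13679 to 17635 CPM in microglia. The part of other cell types in the level of Cox6a2 was not tested.

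Cox8b, the form of subunit 8 known from muscle and brown fat of the mouse, made up 40.5% and 37.9% of its family in T cells of IL-5 mice, 30.6% and 28.7% in T cells of PBS mice, 23.7% and 21.1% in microglia of IL-5 mice and 24.3% and 18.1% in microglia of PBS mice. T cells of IL-5 mice were above T cells of PBS mice, and these above all microglia, with no overlap. The summed choroid plexus genes given above were also highest in T cells of IL-5 mice, then in T cells of PBS mice, and lower in microglia, except that both microglial libraries of IL-5 mice were slightly above T cells PBS library 2. The part of the choroid plexus transcripts in the level of Cox8b was not tested.

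Cox7a2l made up 8.45% to 12.2% of the Cox7a family in the 4 T cell libraries, against 2.44% and 6.35% in microglia of IL-5 mice and 7.39% and 8.14% in microglia of PBS mice. The T cell libraries were all above the microglial ones. These are shares and not levels. In the gene tests below, all 18 tested complex IV members, Cox8b and Cox7a2l among them, were lower in T cells than in microglia of PBS mice, most of them not past the threshold. Cox7a2 was the main form everywhere, with 78.2% to 84.9% in T cells and 86.3% to 90.6% in microglia. In the remaining families 1 form led throughout on the TPM scale: Cox4i1 made up at least 99.3% of the Cox4i genes, Cox6b1 89.3% to 94.3% of the Cox6b genes, Ndufa4 at least 99.1% of its pair, and Atp5g3, a gene for the membrane ring of ATP synthase, 79.8% to 90.8% of the Atp5g genes. The last share depends on the transcript length given to Atp5g1: with the mean length of its transcripts Atp5g3 made up 71.1% to 85.7%, and by CPM Atp5g1 was the main form in microglia IL-5 library 1 with 51.5%. Cox4i2, known from lung and from low oxygen, had 6 to 129 counts per library.

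**Figure D2:**
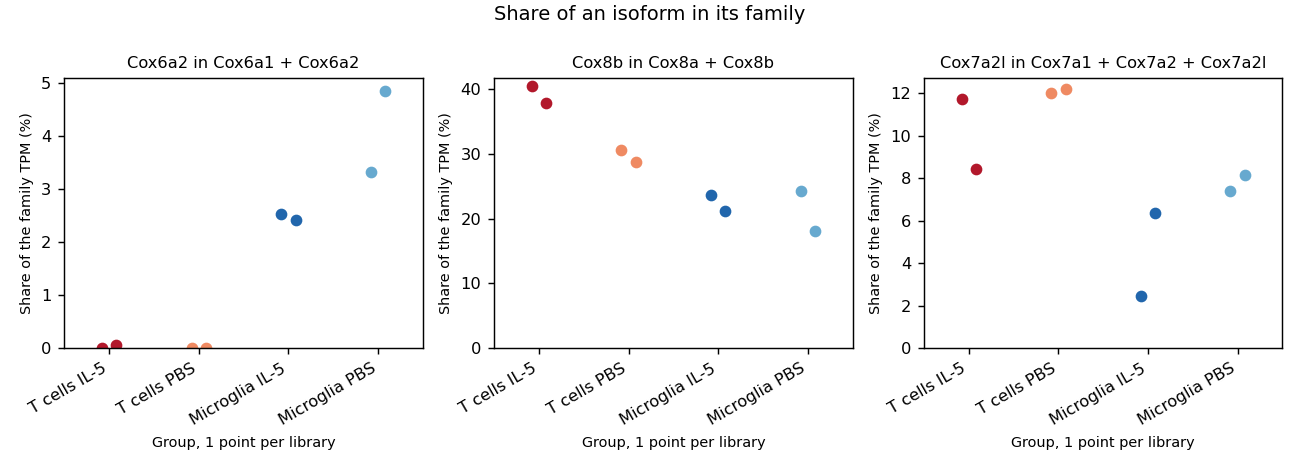
Share of 3 isoform genes in the summed TPM of their family, in percent, with 1 point per library and the groups along the x axis. Cox6a2 lies at or near 0% in T cells and between 2.41% and 4.84% in microglia. The share of Cox8b is highest in T cells of IL-5 mice at 40.5% and 37.9%, and that of Cox7a2l is lower in microglia than in T cells. A share does not give the level of a gene.

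T cells of PBS mice were compared with microglia of PBS mice. For gene tests, levels are normalised CPM, that is CPM after TMM scaling, and edgeR's quasi-likelihood test was used with Benjamini-Hochberg adjustment over all genes tested and a threshold of 0.05. Of 82 members tested, 1 was higher in T cells, beside 2.57% of all genes tested, and 3 were lower, beside 4.6%. As a group, 8 members were above 0 and the median log2 fold change was -0.91, whereas 51.1% of all genes were above 0 and their median was 0.06. At an unadjusted p under 0.05 there were 34 members. Both T cell libraries lay above both microglial libraries for 7 members and below both for 68, against 29.1% and 29.9% of all genes.

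Ndufa10, an accessory subunit on the matrix side of complex I, had 131.8 and 104.4 normalised CPM in T cells of PBS mice, against 22.63 and 29.53 normalised CPM in microglia of PBS mice. The lower T cell library was above the higher microglial library by a wide margin, with a log2 fold change of 2.18 ± 0.40 (SE; edgeR, adjusted p = 0.0137). Complex I as a whole lay mostly on the other side: 33 of its 35 tested members, Ndufa10 being among the 35, were below 0, and the median was -0.93.

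Complex II gave 2 of the 3 lower calls, both for the subunits that anchor it in the membrane. Sdhd had 107.3 and 127.9 normalised CPM in T cells of PBS mice, against 361.2 and 384.5 in microglia of PBS mice (log2 fold change -1.66 ± 0.36 SE; edgeR, adjusted p = 0.0243). Sdhc had 138.9 and 127.0 normalised CPM in T cells, against 344.9 and 295.5 in microglia (-1.27 ± 0.30 SE; edgeR, adjusted p = 0.0372). The groups did not overlap for either gene. The catalytic pair of the same complex differed less: Sdha was at 235.9 and 166.8 normalised CPM in T cells and 220.8 and 224.0 in microglia, and Sdhb at 175.3 and 170.0 in T cells and 224.0 and 217.2 in microglia, neither past the threshold.

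Cox6a2 had 0 counts in both T cell libraries of PBS mice, against 51.81 and 65.08 normalised CPM in microglia. Taking 3 counts per library as the floor, it was at least 668-fold lower in T cells (edgeR, adjusted p = 0.0091). No member of complexes III and V passed the threshold. Uqcrc1, a core subunit of complex III, had the smallest p among the higher members there, at 0.53 ± 0.33 (SE; edgeR, adjusted p = 0.375), and Uqcrq, a small subunit, among the lower ones at -1.22 ± 0.44 (adjusted p = 0.142). In complex V these were Atp5a1, the alpha subunit of the catalytic head, at 0.61 ± 0.32 (adjusted p = 0.298), and Atp5g3 at -1.05 ± 0.34 (adjusted p = 0.101).

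The calls of this comparison rested on single libraries. Without T cells PBS library 1 no member was called, beside 1.03% of all genes higher and 2.16% lower, and 1 library less on either side changed the counts as well. They were 0 higher (0.96% of all genes) and 1 lower (2.11%) without microglia PBS library 1, 0 (0.809%) and 1 (2.28%) without microglia PBS library 2, and 1 (0.907%) and 1 (2.6%) without T cells PBS library 2. Microglia of IL-5 mice enter through the shared spread, the scaling and the filter on low counts: leaving out library 1 gave 1 higher (4.84%) and 41 lower (6.9%), and leaving out library 2 gave 1 (5.01%) and 46 (7.22%). DESeq2 called 1 higher (7.38%) and 12 lower (9.44%), edgeR with no filter on low counts 1 (3.52%) and 12 (5.94%), and edgeR adjusted for GC content 1 (2.29%) and 6 (4.81%). Scaling by library size alone gave 1 higher (5.97%) and 1 lower (2.44%) and moved the median of all genes to 0.75 and that of the members to -0.21, while relative to all genes the members were at -0.96 under either scaling.

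T cells of IL-5 mice were then compared with microglia of IL-5 mice. Small subunits were mostly lower in T cells, and the few higher members were mostly larger ones. Of 82 members tested, 3 were higher in T cells, beside 2.49% of all genes, and 38 were lower, beside 5.73%. The lower calls were 18 in complex I, 1 in complex II, 4 in complex III, 7 in complex IV and 8 in complex V. The median log2 fold change of the members was -1.66, against 0.19 over all genes, and 14 members were above 0. T cell libraries lay wholly above microglial ones for 8 members and wholly below for 61, against 28.9% and 24.3% of all genes.

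The 3 higher members were Uqcrc1, Ndufa10 and Atp5a1, and the first and last of these belong to the catalytic or core part of their complex. Uqcrc1 had 263.7 and 307.5 normalised CPM in T cells of IL-5 mice, against 71.49 and 85.85 in microglia of IL-5 mice (log2 fold change 1.86 ± 0.34 SE; edgeR, adjusted p = 0.012). Ndufa10 had 123.3 and 125.6 normalised CPM in T cells, against 38.01 and 35.73 in microglia (1.75 ± 0.40 SE; edgeR, adjusted p = 0.0296). Atp5a1 had 695.8 and 865.8 normalised CPM in T cells, against 290.3 and 348.4 in microglia (1.29 ± 0.32 SE; edgeR, adjusted p = 0.0407). For each of these genes both T cell libraries were well above both microglial ones, and the microglial libraries were close to each other.

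Among the lower members of complex I with the smallest p were Ndufb8, Ndufb3 and Ndufc2, small accessory subunits of the membrane arm. Ndufb8 had 199.4 and 243.8 normalised CPM in T cells of IL-5 mice, against 1509 and 648.1 in microglia of IL-5 mice (-2.28 ± 0.45 SE; edgeR, adjusted p = 0.0166). Ndufc2 had 287.9 and 264.1 normalised CPM in T cells, against 2466 and 736.4 in microglia (-2.54 ± 0.54 SE; edgeR, adjusted p = 0.0237). Ndufb3 had 114.1 and 148.4 normalised CPM in T cells, against 1040 and 327.7 in microglia (-2.38 ± 0.51 SE; edgeR, adjusted p = 0.0237). T cells were below both microglial libraries for all 3 genes, but the microglial libraries differed from each other more than 2-fold, library 1 being the higher.

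In complex II only Sdhc passed, with 180.5 and 189.8 normalised CPM in T cells of IL-5 mice, against 527.7 and 444.6 in microglia (-1.39 ± 0.31 SE; edgeR, adjusted p = 0.0257). Sdha, the catalytic subunit, lay on the other side at 294.2 and 324.6 normalised CPM in T cells and 63.31 and 213.7 in microglia, not past the threshold (1.16 ± 0.51 SE; adjusted p = 0.223). In complex III, Uqcrb fell by 2.05 on the log2 scale in T cells relative to microglia (SE 0.46; edgeR, adjusted p = 0.0268), Uqcrh by 1.32 (adjusted p = 0.039) and Uqcrq by 1.77 (adjusted p = 0.0434). All 3 are small accessory subunits.

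In complex IV, Cox6a2 had 0 and 17 counts in T cells of IL-5 mice, against 1795 and 905 in microglia; with the library at 0 set to the floor of 3 counts its level was 284-fold lower (edgeR, adjusted p = 0.0196). Cox6a1, the common form, also was lower, at 599.9 and 648.0 normalised CPM in T cells against 3886 and 1378 in microglia (-2.08 ± 0.47 SE; edgeR, adjusted p = 0.0278). Cox7c, a small accessory subunit, had a log2 fold change of -2.29 ± 0.53 (SE; edgeR, adjusted p = 0.0309). In complex V the lower members were led by Atp5k at -1.97 ± 0.43, Atp5j at -1.70 ± 0.40 and Atp5mpl at -2.30 ± 0.54 (SE; edgeR, adjusted p = 0.0247, 0.0319 and 0.0333), small subunits of the membrane part and the stalk. The exons of Atp5j overlap those of Gabpa on 16.3% of their bases, and Gabpa had 11.3 to 56.3 CPM.

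A fixed set of 18 catalytic and core subunits, named in the rule for named genes, was set beside the rest. In this comparison 11 of the 18 were above 0 and their median log2 fold change was 0.15, 2 being called higher (Uqcrc1 and Atp5a1) and 2 lower (Sdhc and Cox5b). Of the other 64 members tested, 3 were above 0, the median was -1.86, and 36 were called lower and 1 higher. Over all genes, 5.73% were called lower and 2.49% higher. Within complex I, 5 of the 7 core subunits, which carry the flavin and the iron-sulfur clusters, were above 0, against 1 of the 28 accessory ones, but without microglia IL-5 library 1 these counts were 1 of 7 (median -0.16) and 1 of 28 (median -1.15). The same split in PBS mice was 5 of 18 above 0 (median -0.38) for the set and 3 of 64 (median -0.99) for the rest.

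The counts depended on single libraries. Without microglia IL-5 library 1, 1 member was higher (2.22% of all genes) and 19 were lower (4.15%), the median was -1.03, and the fixed set had 6 of 18 above 0 with a median of -0.21, against 3 of 64 with a median of -1.09 for the rest. Of the genes named above, 6 were then no longer past the threshold: Ndufa10 at 1.75, Atp5a1 at 1.12, Uqcrq at -0.99, Cox6a2, Cox7c at -1.21 and Atp5mpl at -1.27 (edgeR, adjusted p = 0.0566 to 0.0905). Uqcrc1 at 1.69, Ndufb8 at -1.60, Ndufc2 at -1.47, Ndufb3 at -1.37, Sdhc at -1.31 and Cox6a1 at -1.19 were still past it (edgeR, adjusted p = 0.0168 to 0.0279), as were Uqcrb, Uqcrh, Atp5k and Atp5j (adjusted p = 0.027 to 0.049). Without microglia IL-5 library 2, 8 were higher (6.2%) and 58 lower (7.13%), the median being -2.18. Without T cells IL-5 library 1 the counts were 0 (0.61%) and 1 (1.72%), and without T cells IL-5 library 2 they were 0 (0.998%) and 1 (2.71%). Microglia of PBS mice enter through the shared spread, the scaling and the filter: without library 1 there were 1 higher (2.0%) and 31 lower (4.38%), and without library 2 there were 1 (2.05%) and 32 (4.44%). DESeq2 called 3 higher (7.09%) and 54 lower (10.1%). With the replicate number as a block, edgeR called 2 higher and 17 lower, with a median of -1.47 against 0.23 over all genes. Scaling by library size moved the median of all genes to 1.01 and left 3 higher (6.22%) and 1 lower (2.18%), the members' median being -1.75 relative to all genes, against -1.85 under TMM.

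**Figure D3:**
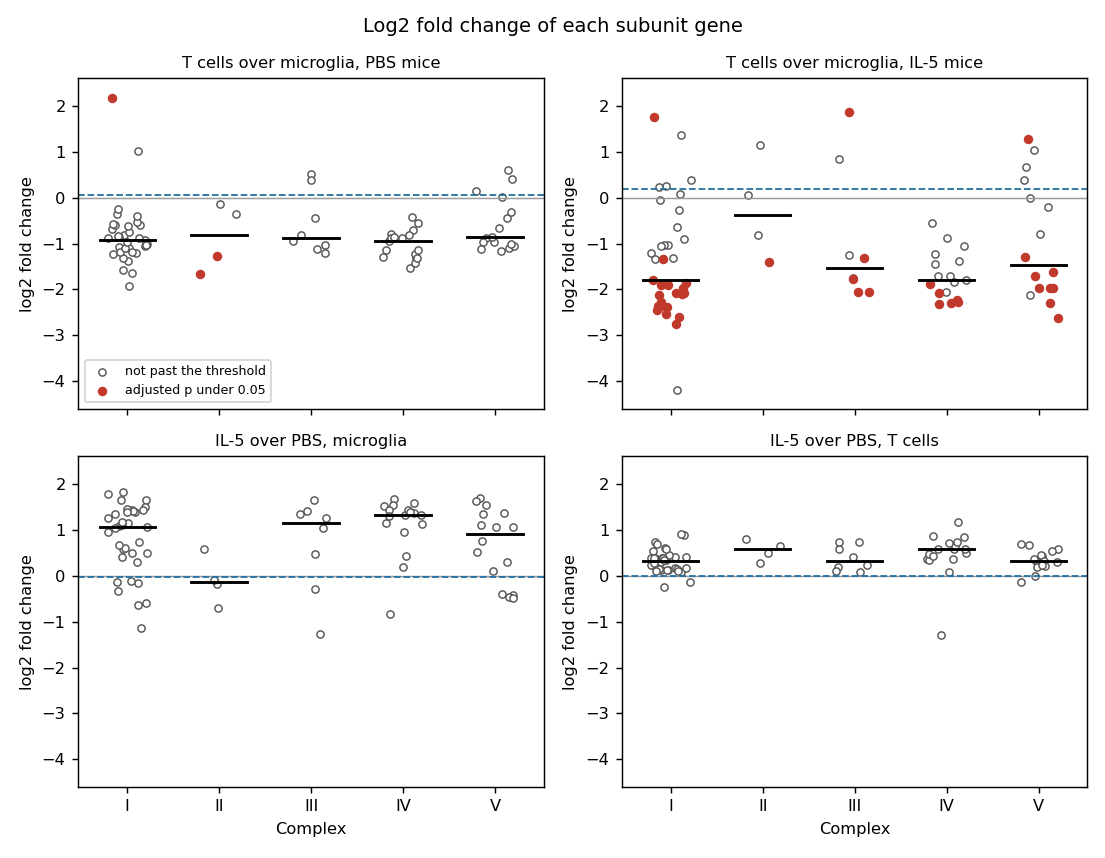
Log2 fold change of each tested subunit gene by complex, in 4 comparisons; filled red points passed an adjusted p of 0.05 in edgeR, black bars are complex medians and the dashed blue line is the median of all genes tested. T cells lie below microglia for most members, with 38 lower calls in IL-5 mice, and no gene passed in either IL-5 comparison. Cox6a2 is off the scale and left out here and from the medians drawn, and Atp5s is left out.

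These differences ran with the members' coding length. Of 84 members with an annotated coding sequence, 24 had under 300 coding bases, 40 had 300 to 600 and 20 had more. Between T cells and microglia of IL-5 mice, 0 of 22 tested members under 300 bases were above 0 and 15 were called lower. Of 39 members of 300 to 600 bases, 1 was above 0 and 23 were called lower. Of 20 longer members, 13 were above 0, with 3 called higher and 0 lower. Over all genes, 13.6%, 24.6% and 60.2% in these classes were above 0, and 2.49% of all genes tested were called higher and 5.73% lower. The Spearman correlation of coding length with the log2 fold change, a description across genes that share their libraries, was 0.74 over 81 members and 0.30 over 14254 genes. In PBS mice it was 0.60 over the members and 0.32 over all genes. Without microglia IL-5 library 1 it was 0.53 over the members in IL-5 mice, and 1 of 22, 0 of 39 and 8 of 20 members were above 0 from the shortest to the longest class.

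All genes showed part of this. In IL-5 mice the median log2 fold change of T cells over microglia was -1.76 for all genes under 300 coding bases, -1.02 for 300 to 600 and 0.46 for longer ones, while the members stood at -2.01, -1.80 and 0.24. With offsets that adjust each library for transcript length, the members' median in IL-5 mice was 0.04, and 3 were called higher (2.14% of all genes) and 5 lower (4.25%). In PBS mice the adjusted median was 0.10, with 1 called higher (2.31%) and 2 lower (4.22%). These offsets remove differences that follow transcript length across all genes, whatever gave rise to them. An order by coding length was left among the members. In IL-5 mice the adjusted medians were -0.13, -0.02 and 0.99 from the shortest to the longest class. In PBS mice they were 0.06, -0.0001 and 0.48.

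IL-5 was compared with PBS within microglia. No member passed the threshold in edgeR in either direction, and neither did any of the 13764 genes tested (0.0% called). At an unadjusted p under 0.05 there were 15 members, and DESeq2 called 0 members higher (0.233% of all genes) and 0 lower (0.477%), with 45 at an unadjusted p under 0.05. The fold changes lay mostly on 1 side: 65 of 82 members were above 0, against 49.0% of all genes, and their median was 1.07 against -0.02. For 60 members both IL-5 libraries were above both PBS libraries and for 5 below, against 17.8% and 20.6% of all genes.

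By complex the median log2 fold change in microglia was 1.06 for complex I, -0.14 for complex II, 1.15 for complex III, 1.32 for complex IV and 0.91 for complex V. These medians were 0.35, 0.02, 0.43, 0.36 and 0.41 without microglia IL-5 library 1. Atp5g1, a gene for the membrane ring of ATP synthase, had the smallest p among the members above 0 in complex V. It was at 1761 and 615.1 normalised CPM in microglia of IL-5 mice, against 444.1 and 323.0 in microglia of PBS mice (1.62 ± 0.59 SE; edgeR, adjusted p = 0.964). Both IL-5 libraries were above both PBS libraries, but library 1 was nearly 3 times library 2.

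Ndufb11, an accessory subunit of complex I, had 1490 and 536.4 normalised CPM in microglia of IL-5 mice, against 398.7 and 331.8 in microglia of PBS mice (1.46 ± 0.57 SE; edgeR, adjusted p = 0.964). Cox5b, which binds zinc in complex IV, had 1087 and 415.4 normalised CPM against 331.9 and 224.7 in PBS mice (1.42 ± 0.56 SE; adjusted p = 0.964). Uqcrh, the hinge protein of complex III, had 825.8 and 571.8 normalised CPM against 357.9 and 317.1 in PBS mice (1.04 ± 0.41 SE; adjusted p = 0.964). In each case the order of the 4 libraries was the same, with IL-5 library 1 at the top and IL-5 library 2 next. Without library 1 the log2 fold changes were 0.67 for Atp5g1, 0.55 for Ndufb11, 0.57 for Cox5b and 0.75 for Uqcrh.

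The members below 0 were mainly catalytic subunits. Uqcrc1 had 71.49 and 85.85 normalised CPM in microglia of IL-5 mice, against 161.0 and 217.3 in microglia of PBS mice, and it had the smallest unadjusted p of all members, 0.0162 (-1.28 ± 0.40 SE; edgeR, adjusted p = 0.964). Its IL-5 libraries were close to each other and both below the PBS libraries. Ndufv1, the NADH-binding subunit of complex I, had 47.6 and 116.2 normalised CPM in IL-5 mice, against 156.8 and 199.9 in PBS mice (-1.13 ± 0.52 SE; adjusted p = 0.964). Sdha had 63.31 and 213.7 normalised CPM in IL-5 mice, against 220.8 and 224.0 in PBS mice (-0.70 ± 0.59 SE; adjusted p = 0.984), so that only library 1 stood clearly below. Without that library Uqcrc1 was at -1.15, Ndufv1 at -0.62 and Sdha at -0.07. Atp5a1 was at -0.49 ± 0.39 and Cox4i2, at 0.3994 and 4.079 normalised CPM against 3.256 and 4.613, at -0.82 ± 2.06 (SE; adjusted p = 0.984 and 0.993). Of complex II, Sdhc was the member above 0, at 0.59 ± 0.38 (SE; edgeR, adjusted p = 0.974).

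In the fixed set of 18 core subunits, 5 were above 0 and the median log2 fold change was -0.23; of the other 64 tested members, 60 were above 0 with a median of 1.22. Without microglia IL-5 library 1 the set's direction turned, with 10 of 18 above 0 and a median of 0.10, beside 61 of 64 and 0.40 for the rest. By coding length, all 22 tested members under 300 bases were above 0 (median 1.37), 35 of 39 members of 300 to 600 bases (median 1.08) and 7 of 20 longer ones (median -0.23). The medians of all genes in the same classes were 0.85, 0.35 and -0.12. The Spearman correlation with coding length was -0.80 over 81 members and -0.03 over 12916 genes, as a description across genes, and -0.44 over the members without that library.

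Most of this size came from 1 library. Without microglia IL-5 library 1 the members' median was 0.37, the medians of the 3 length classes were 0.41, 0.38 and 0.11, and no member was called. Without microglia IL-5 library 2, which leaves library 1 alone against PBS, 46 members were called higher, beside 3.57% of all genes, and 4 lower, beside 4.85%, with a median of 1.51. In that fit the lone library is assumed to vary like the PBS pair. Adjusting for transcript length left a median of 0.26, and medians of 0.30, 0.31 and -0.25 from the shortest to the longest coding length class. The choroid plexus genes had a median of 0.55 in microglia, with 8 of 10 above 0. The B cell markers had 5 of 5 above 0 and a median of 1.18, and summed to 260 and 291 CPM in IL-5 mice against 117 and 176 CPM in PBS mice. The oligodendrocyte markers had 0 of 5 above 0 and a median of -1.15, and summed to 194 and 406 CPM in IL-5 mice against 524 and 652 CPM in PBS mice. The part of these transcripts in the members' fold changes was not tested.

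Summed CPM per library show the same without any fit. The members under 300 coding bases summed to 24718 and 10650 CPM in microglia of IL-5 mice and 8827 and 7013 CPM in microglia of PBS mice, whereas the members over 600 bases summed to 2556 and 4142 CPM in IL-5 mice and 3746 and 4015 CPM in PBS mice. The ratio of the short to the long class was 1.12 and 1.23 in T cells of IL-5 mice, 1.04 and 0.965 in T cells of PBS mice, 9.67 and 2.57 in microglia of IL-5 mice and 2.36 and 1.75 in microglia of PBS mice. All genes under 300 coding bases took 3.93% to 4.46% of the counts of genes with a coding length in T cells, 14.1% and 7.18% in microglia of IL-5 mice and 6.90% and 6.22% in microglia of PBS mice. The part of these library-wide shares in the members' levels was not tested.

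**Figure D4:**
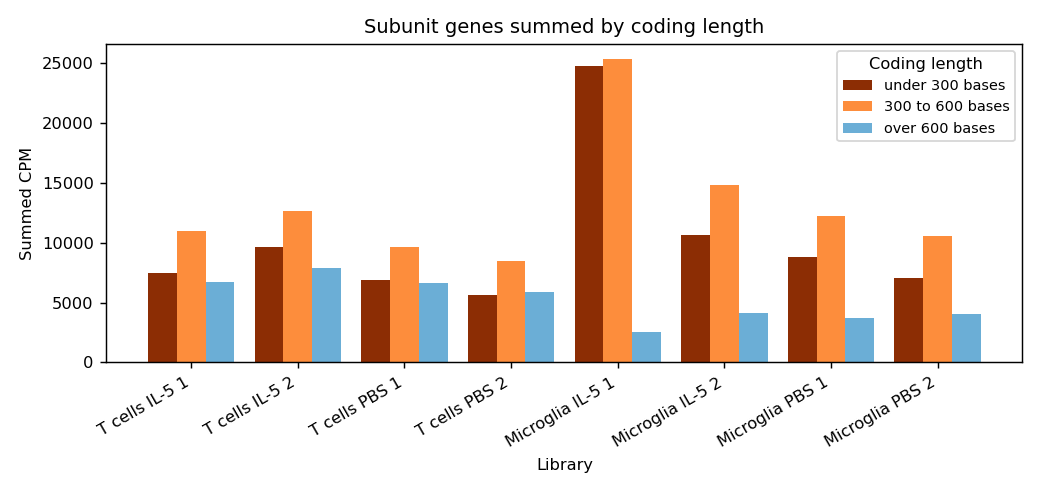
Summed CPM of the subunit genes in 3 classes of coding length, for each of the 8 libraries along the x axis. In microglia IL-5 library 1 the members under 300 bases reach 24718 CPM and those over 600 bases only 2556 CPM, while the 3 classes are closer to each other in T cells.

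**Figure D5:**
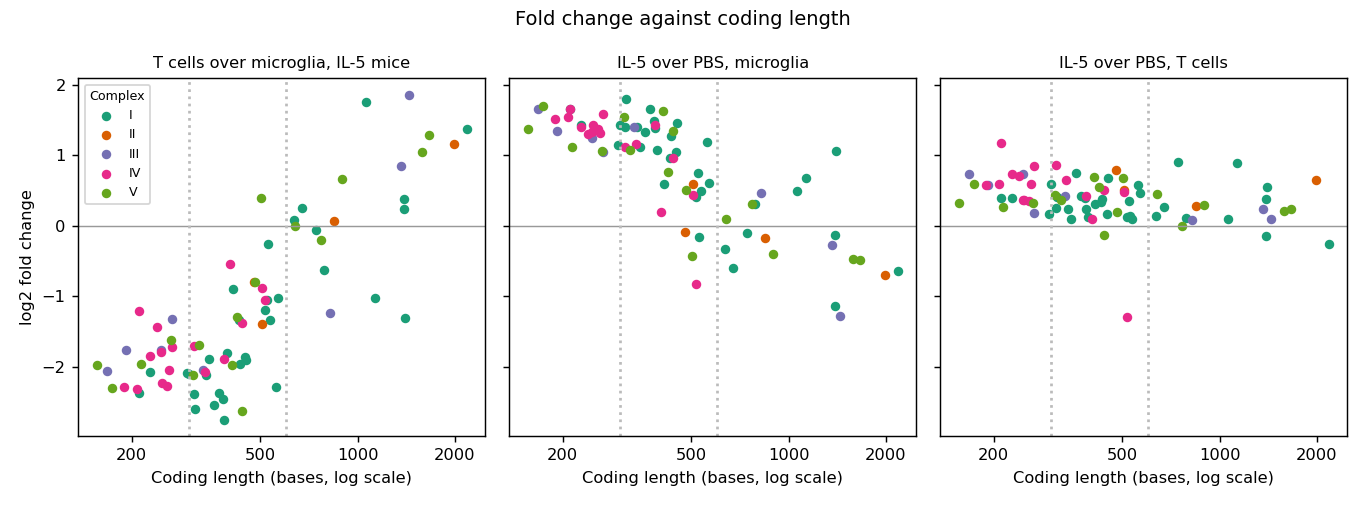
Log2 fold change of each subunit gene against its coding length in bases on a log scale, coloured by complex, with dotted lines at 300 and 600 bases, in 3 comparisons. Short members lie low and long ones high between T cells and microglia of IL-5 mice, the order is turned round for IL-5 over PBS in microglia, and it is weaker in T cells. Cox6a2 and genes without a coding length are left out.

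IL-5 was compared with PBS within T cells, where 80 members were tested. No member passed the threshold in edgeR, nor did any of the 13897 genes tested (0.0% called), and 19 members had an unadjusted p under 0.05. The fold changes were small and mostly positive: 76 of 80 members were above 0, against 49.2% of all genes, and the median was 0.37 against -0.01 on the log2 scale. For 48 members both IL-5 libraries were above both PBS libraries and for 1 below, against 17.1% and 18.5% of all genes. DESeq2 called 3 members higher, beside 1.08% of all genes, and 0 lower, beside 0.324%, with 20 at an unadjusted p under 0.05. All 3 are subunits of complex IV: Cox6a1 at 0.64 ± 0.18, Cox7b at 0.70 ± 0.20 and Cox8b at 1.17 ± 0.34 (SE; DESeq2, adjusted p = 0.0231, 0.0352 and 0.0404).

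Cox6a1 had 599.9 and 648.0 normalised CPM in T cells of IL-5 mice, against 419.5 and 394.7 in T cells of PBS mice (0.64 ± 0.16 SE; edgeR, adjusted p = 1.0). Cox7b, a small subunit needed for assembly of the enzyme, had 389.0 and 426.0 normalised CPM against 258.2 and 250.2 in PBS mice. Cox8b had 251.0 and 291.3 normalised CPM against 151.0 and 92.65 in PBS mice. The groups did not overlap for any of the 3, and the gap exceeded the spread within each group.

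By complex the median log2 fold change in T cells was 0.32 for complex I, 0.57 for complex II, 0.33 for complex III, 0.58 for complex IV and 0.32 for complex V. Uqcrq had 299.0 and 344.9 normalised CPM in T cells of IL-5 mice, against 200.9 and 192.9 in T cells of PBS mice (0.74 ± 0.20 SE; edgeR, adjusted p = 1.0). Ndufb11 was at 282.8 and 256.8 normalised CPM against 166.4 and 175.4 in PBS mice (0.68 ± 0.19 SE), and Sdhd at 238.1 and 164.3 against 107.3 and 127.9 in PBS mice (0.80 ± 0.27 SE). Atp5d, the delta subunit of the central stalk of ATP synthase, was at 338.8 and 409.6 normalised CPM against 241.2 and 236.1 in PBS mice (0.68 ± 0.20 SE). None of these passed in edgeR (adjusted p = 1.0), although both IL-5 libraries were above both PBS libraries for each.

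The 4 members below 0 were Ndufs1 at -0.25 ± 0.29, Ndufv1 at -0.14 ± 0.39, Cox4i2 at -1.30 ± 2.42 and Atp5g2 at -0.13 ± 0.86 (SE; edgeR, adjusted p = 1.0 for each). Atp5g2 had 10.06 and 16.64 normalised CPM in IL-5 mice against 16.43 and 13.32 in PBS mice, with overlapping groups, and its sign turned without T cells IL-5 library 1 or T cells PBS library 1. The order by coding length was weaker than in microglia, with medians of 0.57, 0.39 and 0.24 from the shortest to the longest class and a Spearman correlation of -0.39 over 80 members. The fixed set of core subunits had 16 of 18 above 0, with a median of 0.25.

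Choroid plexus genes moved the same way in these libraries. All 10 listed choroid plexus and ependymal genes were above 0 in T cells of IL-5 mice over PBS mice, their median log2 fold change being 0.83, and their summed level was 113806 and 116691 CPM in IL-5 mice against 84496 and 59424 CPM in PBS mice. The T cell markers had a median of -0.39 with 3 of 13 above 0, and summed to 4527 and 5546 CPM in IL-5 mice against 6807 and 7637 CPM in PBS mice. The B cell markers had 5 of 5 above 0 and a median of 1.06, and summed to 232 and 189 CPM in IL-5 mice against 224 and 98.96 CPM in PBS mice. The part of these transcripts in the members' fold changes was not tested. The median of the members ranged from 0.22 without T cells IL-5 library 2 to 0.50 without T cells IL-5 library 1.

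The difference between the responses, T cells minus microglia, was tested in the fit of all 8 libraries, and it uses the same libraries as the comparisons above. No member and no gene passed in edgeR (0.0% called). At an unadjusted p under 0.05 there was 1 member, and DESeq2 called 0 members higher (0.956% of all genes) and 0 lower (0.407%), with 2 at an unadjusted p under 0.05. The median over the members was -0.59 against 0.03 over all genes, and 62 of 82 were below 0. Complex II stood on the other side, with 3 of 4 members above 0 and a median of 0.64, or 4 of 4 and 0.43 without microglia IL-5 library 1. The median was 0.02 without microglia IL-5 library 1 and -1.12 without microglia IL-5 library 2, when 1 member was called higher (1.07% of all genes) and 3 lower (0.326%).

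The member with the unadjusted p under 0.05 was Uqcrc1, at 1.33 ± 0.46 (SE; edgeR, unadjusted p = 0.0173, adjusted p = 0.904). It had similar levels in T cells of IL-5 and PBS mice, 263.7 and 307.5 against 250.6 and 293.7 normalised CPM, and lower levels in microglia of IL-5 than of PBS mice, 71.49 and 85.85 against 161.0 and 217.3. Sdha was at 1.30 ± 0.72 and Atp5d at 1.06 ± 0.59, and on the other side Ndufa5 of complex I at -1.05 ± 0.57 and Atp5e, the epsilon subunit of ATP synthase, at -1.10 ± 0.65 (SE; edgeR, adjusted p = 0.904 to 0.914). These were 1.23 for Uqcrc1, 0.70 for Sdha, 0.59 for Atp5d, -0.35 for Ndufa5 and -0.17 for Atp5e without microglia IL-5 library 1.

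Other mitochondrial gene lists, which were drawn up with earlier results of these data known, were followed beside the members. The 18 enzymes of the TCA cycle and of pyruvate dehydrogenase stood mostly above 0 in T cells over microglia: between T cells and microglia of PBS mice 14 were above 0, the median log2 fold change was 0.52 and 1 was called higher, beside 2.57% of all genes, and in IL-5 mice all 18 were above 0, the median was 1.27 and 4 were called higher, beside 2.49%. Ogdh, a subunit of the 2-oxoglutarate dehydrogenase complex, had the smallest p in both, with 230.3 and 164.5 normalised CPM in T cells against 48.39 and 34.60 in microglia of PBS mice (2.25 ± 0.42 SE; edgeR, adjusted p = 0.0147), and 154.7 and 153.0 against 41.54 and 24.57 in IL-5 mice (2.22 ± 0.42 SE; adjusted p = 0.0153). Fh1, fumarate hydratase, was higher in T cells than in microglia of IL-5 mice, at a log2 fold change of 2.21 ± 0.51 (SE; edgeR, adjusted p = 0.0309).

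Of 52 assembly factors of the complexes, 50 were tested. Their median for T cells over microglia was -0.64 in PBS mice and -0.68 in IL-5 mice, where the subunits stood at -0.91 and -1.66. Acad9, which helps to build complex I, was the 1 factor called higher in T cells of PBS mice (2.57% of all genes), at 70.42 and 49.17 normalised CPM against 5.006 and 6.557 in microglia (3.37 ± 0.66 SE; edgeR, adjusted p = 0.0174). In IL-5 mice 9 factors were called lower, beside 5.73% of all genes, among them Coa3 of complex IV at -2.68 ± 0.57 (SE; edgeR, adjusted p = 0.0237) and Pet100 of complex IV at -2.21 ± 0.47 (adjusted p = 0.0242). Usmg5, the ATP synthase subunit outside the symbol rule that was listed with them, was another, at -2.29 ± 0.52 (adjusted p = 0.0306).

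Import genes were mixed. Hspa9, the mitochondrial Hsp70, was at 181.1 and 249.7 normalised CPM in T cells of PBS mice against 48.75 and 38.35 in microglia (2.31 ± 0.50 SE; edgeR, adjusted p = 0.0257), while Tomm22, a receptor of the outer membrane, was at 84.42 and 71.46 against 216.0 and 197.0 (-1.41 ± 0.36 SE; adjusted p = 0.0464). In IL-5 mice 7 of the 21 import genes were called lower, beside 5.73% of all genes, and 0 higher, beside 2.49%. Slc25a4, an ADP/ATP carrier, was lower in T cells of PBS mice (-1.29 ± 0.31 SE; edgeR, adjusted p = 0.0366). No gene for coenzyme Q synthesis and no regulator, among them Nrf1, Gabpa and Ppargc1a, passed in edgeR in any comparison.

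Under IL-5 no listed gene passed in edgeR in either cell type. In microglia the TCA cycle list stood against the subunits, with 2 of 18 above 0 and a median of -0.37, and the coenzyme Q list had 1 of 11 above 0 and a median of -0.82. Assembly factors had a median of 0.25, import genes 0.68, the cytochrome c and electron entry list 0.15 and the regulators -0.02. In T cells the medians were 0.28 for the TCA cycle, -0.03 for coenzyme Q synthesis, 0.08 for assembly factors, 0.13 for import, 0.42 for cytochrome c and electron entry and 0.33 for the regulators.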

How the data were processed

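The 8 libraries of T cell and microglial RNA, 2 in each group, were read from 1 end. Per the submitters' processing notes, reads were handled with STAR 2.5.3a, Cufflinks 2.0, DESeq2 1.1, bcl2fastq 2.20.0.422 and FastQC 1.0.0 on mm10 and GRCm38; the counting tool and strand setting are not given in the sources used here, so reads of overlapping genes on opposite strands cannot be told apart. The authors deposited raw counts per gene with no scaling. Of 24953 entries, 2 summary rows and 27 genes with unreadable cells were left out, among them 0 members. Lengths and coordinates came from GENCODE M21.

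Genes were tested with edgeR 4.0.16 (R 4.3.3; quasi-likelihood, robust, TMM, filterByExpr with a minimum count of 10, two-sided). IL-5 against PBS was fitted within each cell type, and the other comparisons on all 8 libraries. The SE of a log2 fold change was derived from its F statistic. The pipeline was tested on simulated data. Alternatives were DESeq2 1.42.0, RLE factors, library size, no filter, a filter at 5 CPM in 2 libraries, the replicate block, offsets for length or GC content, and each library left out. Python 3.11.15 and matplotlib 3.10.9 drew the figures. Groups of 2 leave an exact permutation test no way to reach the threshold. The floor of 3 counts covers counting error only, and reads are not independent molecules. The SE rests on the spread between libraries that the fit estimates.

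The members and lists were chosen with earlier results of these data known. Named were, per complex and direction, up to 3 members past the threshold with the smallest p, otherwise the member with the smallest p, a fixed set of core subunits and isoform families, and up to 2 genes per other list. Cox7b, Ndufb11 in T cells, the members with shared windows, the most abundant members and Ckm and Mylpf were chosen after their values were seen.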

Additional observations from a re-analysis of the deposited data

How the results depend on the processing

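For T cells over microglia of PBS mice, lower calls were 12 by DESeq2, 12 with no filter, 6 with the GC offset and 1 by library size, where the median was -0.21; the length offset gave a median of 0.0963 and turned Atp5g3 to 0.0341. In IL-5 mice lower calls were 1 by library size (median -0.74), 5 with the length offset (median 0.039) and 17 with the replicate block, and the length offset turned Uqcrb to 0.0556, Uqcrh to 0.563 and Atp5k to 0.0374. For IL-5 over PBS the length offset gave a median of 0.26 in microglia, and DESeq2 3 higher calls in T cells; for the difference the length offset gave -0.13, and library size turned Sdhc to 0.0234. The correlation of deviations gave no sign that the replicate number pairs libraries (-0.004 to 0.019), which does not show that they were unpaired. Under the replicate block the T cell over microglia calls in PBS mice were 1 higher and 3 lower and in IL-5 mice 2 higher, with 0 in the other comparisons. Under it the members' medians were -0.89 in PBS mice and -1.47 in IL-5 mice, against 0.03 and 0.23 over all genes.

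Leaving out each library in turn, T cells over microglia of PBS mice gave 0 to 1 higher and 0 to 46 lower (median -1.15 to -0.82), IL-5 mice 0 to 8 higher and 1 to 58 lower (-2.18 to -1.03), microglia 0 to 46 higher and 0 to 4 lower (0.37 to 1.51), T cells 0 to 0 (0.22 to 0.50) and the difference 0 to 1 higher and 0 to 3 lower (-1.12 to 0.02). Signs turned for Cox4i2 in microglia (-3.29 to 0.0457), Atp5g2 in T cells (-0.56 to 0.20), and in the difference for Sdhc (-0.28 to 0.0286) and Cox6a2 (-0.45 to 6.41). Where a setting changed a result, the cause was not tested. With 2 libraries per group, 1 library can make or end a call, and a p that misses the threshold does not show that levels were alike.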
